A study of Mus musculus with 18 samples.

Results

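The genes described here are 10 regulators of DNA methylation and of Polycomb repression, Dnmt1, Dnmt3a, Dnmt3b, Uhrf1, Hells, Tet1, Tet2, Tet3, Ezh2 and Suz12. They were taken by name, from 34937 genes in the count tables, and all 10 were detected and tested. Poly-A RNA was sequenced from the livers of 18 mice, in 6 groups of 3. All mice had received carbon tetrachloride, a liver toxin, at 0.5 µL per g of body weight into the peritoneum. They carried MycER, the transcription factor MYC joined to part of the estrogen receptor, and tamoxifen at 1 mg a day into the peritoneum switches it on. Group 12 was sampled 12 days after injury without MycER activation, and group 12ON at 12 days with it. Groups 1OFF, 2OFF, 3OFF and 7OFF are labelled as 1, 2, 3 and 7 days after injury without activation. The labels do not say whether MycER had been active earlier in the OFF mice, whether group 12 received tamoxifen, which promoter drives MycER, or the strain, sex and age of the mice.

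Methylation of cytosine in CpG pairs is copied onto each new DNA strand by DNMT1, which UHRF1 brings to half-methylated DNA and which the remodeller HELLS (LSH) helps in compact chromatin. DNMT3A and DNMT3B place methyl groups on unmethylated DNA, and the TET enzymes oxidise methylcytosine, the first step of its removal. EZH2 is the catalytic and SUZ12 a scaffold subunit of Polycomb repressive complex PRC2, which methylates histone H3 on lysine residues of silenced genes. In the adult liver hepatocytes rarely divide, and they re-enter the cell cycle after injury.

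Promoters are shown for Uhrf1, Hells and Ezh2, chosen as the 3 regulators with the largest log2 fold changes between 12ON and group 12. Short words near their starts are described next. Each line gives the 250 bases before a RefSeq start site on the strand of the gene, 5′ to 3′, from the GRCm38.p6 table, with the start base itself not included. Capitals mark matches to words of the E2F type, which bind the E2F factors of cell cycle entry. The set searched on both strands was TTCCCGC, the related word TTCGCGC, the word TTGCCGC, and lastly the word TTGGCGC. The windows are chr17:56303087-56303336 on the plus strand for the first of the Uhrf1 starts, chr19:38930740-38930989 on the plus strand for Hells, and chr6:47595031-47595280 on the minus strand for Ezh2.
Uhrf1: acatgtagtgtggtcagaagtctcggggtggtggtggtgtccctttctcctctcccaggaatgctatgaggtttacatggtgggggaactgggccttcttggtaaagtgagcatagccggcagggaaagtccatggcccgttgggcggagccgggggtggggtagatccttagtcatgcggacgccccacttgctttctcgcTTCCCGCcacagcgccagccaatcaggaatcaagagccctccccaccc
Hells: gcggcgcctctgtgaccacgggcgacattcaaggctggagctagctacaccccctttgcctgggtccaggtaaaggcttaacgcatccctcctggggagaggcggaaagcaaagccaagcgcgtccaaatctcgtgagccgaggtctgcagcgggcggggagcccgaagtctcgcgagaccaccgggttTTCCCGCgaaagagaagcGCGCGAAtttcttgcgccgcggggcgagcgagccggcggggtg
Ezh2: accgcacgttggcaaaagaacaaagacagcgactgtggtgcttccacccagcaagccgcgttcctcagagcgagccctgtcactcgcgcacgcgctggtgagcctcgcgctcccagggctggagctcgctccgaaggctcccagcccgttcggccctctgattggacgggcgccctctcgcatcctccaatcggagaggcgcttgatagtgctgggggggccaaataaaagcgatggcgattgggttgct

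The Uhrf1 window held TTCCCGC from base -48 to -42 before the start. At the second Uhrf1 start, which is not printed, TTCGCGC lay at -184 to -178. In Hells, TTCCCGC lay at -61 to -55 and TTCGCGC, on the opposite strand, at -43 to -37. The Ezh2 match, TTGGCGC, lay 5 to 11 bases after the start and so outside the stretch printed above. With 50 bases after each start included, windows of 300 bases were available for all 10 genes, 15 windows in all. At least 1 E2F-type word was found in 6 of these 15 windows, belonging to Dnmt1, Uhrf1, Hells, Ezh2 and Suz12, against 9.57% of 32851 windows over all genes and 10.9% of 27025 genes. The E-box CACGTG, the core word bound by MYC and its partner MAX, was found in 1 window, of Dnmt3a, against 7.15% of all windows. The words of the E2F-type set do not overlap CACGTG in these windows. CpG pairs numbered 2 to 57 per window, where the median of all windows was 7. Every word searched contains CG, and windows with an E2F-type word held 12 to 41 CpG pairs. The shares over all windows and genes are therefore not matched for CpG content. The first 2 Dnmt3a windows overlap, so the 15 windows are not all separate. A match is a description of the letters and not a binding site.

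Library totals ranged from 23.1 to 75.3 M counts. Xist, the RNA of the inactive X chromosome, was high (263 to 485 CPM of library totals) in a library of every group but 1OFF. These were replicate 3 of groups 12, 3OFF and 7OFF, replicate 2 of 12ON and replicate 1 of 2OFF. In all other libraries Xist was at 0.171 to 1.75 CPM. Hepatocyte markers were the most abundant of the marker lists in every group, with a summed level of 27584 to 34671 CPM over 6 genes in 12ON, the lowest group. Levels below are CPM, counts scaled to the library total after TMM correction. Changes are log2 fold changes ± SE from edgeR (quasi-likelihood test), with p-values adjusted over 17789 genes by Benjamini-Hochberg and called at 0.05. Replicate 2 of 2OFF stood apart from the other 2OFF mice in Uhrf1, Hells and Dnmt1, so results on that group are given with and without it. It was singled out after these levels were seen. In whole liver, fewer cells of a type and less RNA per cell cannot be told apart.

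**Figure D1:**
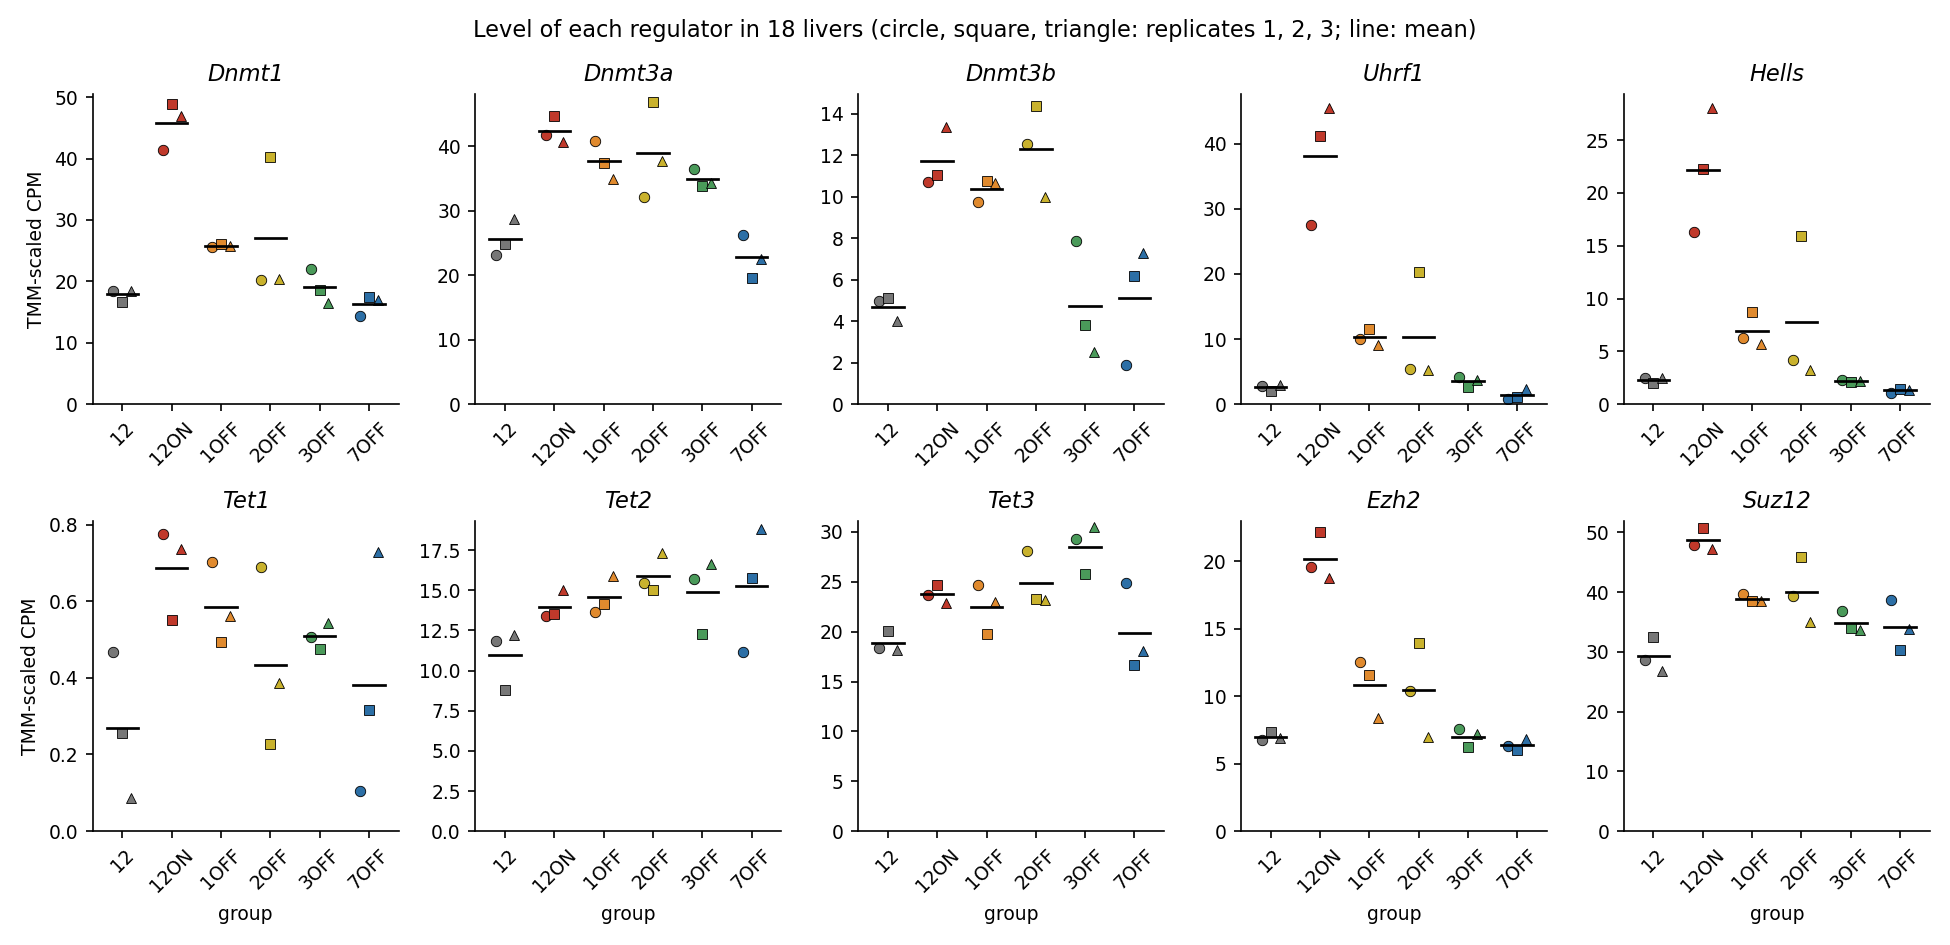
TMM-scaled CPM of each of the 10 regulators (vertical axes from 0, a scale for each gene) in 3 mice of each of 6 groups (horizontal axis), with a line at the group mean. Uhrf1, Hells, Dnmt1 and Ezh2 are highest in 12ON, with 2OFF replicate 2 (square) above the other 2OFF mice, while the Tet genes spread less between groups.

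The first comparison asked how livers with active MycER differed from livers without it at 12 days. All 10 regulators had a positive log2 fold change in 12ON, and 9 were significantly higher, against 23.8% of all genes tested that were higher and 22.5% that were lower. Uhrf1 and Hells rose most, Ezh2, Tet1, Dnmt1 and Dnmt3b between 2-fold and 3-fold, and Dnmt3a and Suz12 less than 2-fold. The median of the 10 was 1.34 on the log2 scale, where that of all genes was -0.0047. The groups did not overlap for any of the 10, as for 58.2% of all genes. Total-count scaling put the median of all genes at 0.486, and then called 51.2% of all genes higher, 7.87% lower, and all 10 regulators higher.

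Among the methyltransferases, Dnmt1 (chromosome 9, 20907206 to 20959888 in GRCm38), the maintenance enzyme, was at 18.5, 16.7 and 18.5 CPM in group 12 and at 41.4, 48.9 and 47.0 CPM in 12ON. Every 12ON liver lay above every liver of group 12, with a log2 fold change of 1.35 ± 0.21 (adjusted p = 8.3e-05, n = 3 per group). Dnmt3a (chromosome 12, 3806007 to 3914443) was at 23.1, 24.8 and 28.7 CPM in group 12 and 41.7, 44.7 and 40.7 CPM in 12ON. Its groups were also apart, by 0.73 ± 0.13 (adjusted p = 0.000299). Dnmt3b (chromosome 2, 153649450 to 153687730), which is best known from the embryo, was lower in level, at 4.98, 5.10 and 4.01 CPM in group 12 and 10.7, 11.04 and 13.4 CPM in 12ON. It rose by 1.32 ± 0.40 (adjusted p = 0.0143), a call that ended without replicate 3 of group 12, where the log2 fold change was 1.22 and the adjusted p 0.056.

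The cofactors of maintenance methylation had larger log2 fold changes than the enzyme they serve, a difference between genes that was not tested. Uhrf1 (chromosome 17, 56303321 to 56323486) was at 2.85, 2.05 and 2.97 CPM in group 12 and at 27.5, 41.2 and 45.5 CPM in 12ON. The lowest 12ON liver was far above the highest of group 12, and the log2 fold change was 3.86 ± 0.51, or 14.5-fold (adjusted p = 3.69e-05). Hells (chromosome 19, 38930915 to 38971051) was at 2.44, 1.99 and 2.48 CPM in group 12 and 16.3, 22.3 and 28.1 CPM in 12ON. It rose by 3.27 ± 0.48, or 9.64-fold (adjusted p = 7.74e-05), with no overlap. Replicate 1 of 12ON was the lowest of its group for both cofactors.

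Of the dioxygenases, Tet1 (chromosome 10, 62804570 to 62899118) was close to the limit of detection, with 3 to 55 counts per library. It was at 0.467, 0.257 and 0.0862 CPM in group 12 and 0.776, 0.550 and 0.736 CPM in 12ON, a log2 fold change of 1.52 ± 0.58 (adjusted p = 0.0426). That call ended when any library but replicate 1 of group 12 was left out, with values of 0.977 (without group 12 replicate 3) to 1.65 (without 12ON replicate 2) and adjusted p of 0.207 and 0.0537. Tet2 (chromosome 3, 133463679 to 133545139) was at 11.8, 8.79 and 12.2 CPM in group 12 and 13.4, 13.5 and 15.0 CPM in 12ON, and did not pass the test, with 0.35 ± 0.17 (adjusted p = 0.0986). Tet3 (chromosome 6, 83362373 to 83459084) was at 18.3, 20.1 and 18.1 CPM in group 12 and 23.7, 24.7 and 22.9 CPM in 12ON. Its difference of 0.33 ± 0.13 passed narrowly (adjusted p = 0.0497) and failed whenever 1 library of either group was left out (0.31 to 0.38, adjusted p = 0.057 to 0.127), with RLE scaling and with DESeq2 (adjusted p = 0.0522 and 0.0519).

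Both PRC2 subunits were higher in 12ON. Ezh2 (chromosome 6, 47530139 to 47595341) was at 6.75, 7.35 and 6.91 CPM in group 12 and at 19.6, 22.2 and 18.8 CPM in 12ON. The groups were apart by 1.53 ± 0.20 (adjusted p = 1.92e-05). Suz12 (chromosome 11, 79993106 to 80034123) was at 28.6, 32.5 and 26.9 CPM in group 12 and 48.0, 50.8 and 47.3 CPM in 12ON, a rise of 0.73 ± 0.10 (adjusted p = 4.8e-05). The catalytic subunit thus rose by more on the log2 scale than the scaffold, a difference between genes that was not tested. Genes that share exon bases with Dnmt3a, Tet2, Ezh2 or Suz12 covered 0.255% to 3.60% of their exon length, and reads there could not be assigned by strand.

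Per kilobase of exon, where levels of different genes can be compared, Suz12 was the highest of the 10 in group 12 at 5.93 ± 0.59 CPM per kb (SD, n = 3), before Dnmt1 at 2.84 ± 0.16. Tet3 at 1.57 ± 0.09 and Dnmt3a at 1.54 ± 0.17 CPM per kb came next and did not differ beyond their spread. Uhrf1 was eighth of the 10 at 0.617 ± 0.117 CPM per kb, beside Tet2 at 0.648 ± 0.111, and Hells ninth at 0.319 ± 0.038. In 12ON the order had changed. Suz12 at 9.84 ± 0.37 and Uhrf1 at 8.94 ± 2.20 CPM per kb were within their spread of each other. Dnmt1 followed at 7.26 ± 0.62 CPM per kb, which lay below Suz12 and within the spread of Uhrf1. Hells at 3.08 ± 0.82 and Ezh2 at 3.02 ± 0.27 CPM per kb followed, and Tet1 was last in both groups, at 0.0184 ± 0.0130 and 0.0467 ± 0.0082. The exon length counts every annotated exon, so a gene with long alternative ends is set too low on this scale.

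The second question was how the OFF groups differed from 12ON. All 4 comparisons share the same 12ON livers. By the labels each OFF group differed from 12ON both in days after injury and in MycER activation, which cannot be told apart. The design text sets the OFF groups against 12ON, as though MycER had been active in them first. The labels do not state this, so the earlier activation of OFF mice is unknown. Each group was a different set of mice, so no change was followed within a mouse. In 1OFF none of the 10 passed edgeR's test, where 0% of all genes passed as lower and 0.00562% as higher. An unadjusted p under 0.05 was found for 5 (14.3% of all genes), and DESeq2 called 4 lower (2.07% of all genes lower, 0.686% higher). Those 5 were Dnmt1, Uhrf1, Hells, Ezh2 and Suz12, the first 4 of which DESeq2 called. Uhrf1 was at 10.0, 11.6 and 9.15 CPM in 1OFF, all below the 12ON livers and above group 12, with a log2 fold change of -1.89 ± 0.45 against 12ON (adjusted p = 0.101). Dnmt1 was at 25.6, 26.1 and 25.7 CPM, with -0.82 ± 0.20 (adjusted p = 0.101). Hells, at 6.29, 8.75 and 5.72 CPM, had -1.68 ± 0.44, and Ezh2, at 12.6, 11.5 and 8.41 CPM, -0.89 ± 0.19 (adjusted p = 0.119 and 0.0944). Suz12, at 39.7, 38.5 and 38.5 CPM, was nearer to 12ON, with -0.32 ± 0.10 (adjusted p = 0.17). When the 2 groups were fitted alone, 5 of the 10 were called lower, as were 1.44% of all genes, with 0.514% higher. Dnmt3a, at 40.8, 37.4 and 34.9 CPM, and Dnmt3b, at 9.73, 10.8 and 10.7 CPM, lay close to 12ON with -0.17 ± 0.13 and -0.17 ± 0.39. The 1OFF and 12ON livers did not overlap for 5 of the 10, against 27.3% of all genes.

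In 2OFF again none of the 10 passed edgeR's test (0.202% of all genes were lower and 0.0281% higher), 5 had an unadjusted p under 0.05 (17% of all genes), and DESeq2 called 4 lower (3.57% of all genes lower, 1.45% higher). The groups did not overlap for 5 of the 10 and for 21.5% of all genes. Replicate 2 differed from the other 2 mice. Uhrf1 was at 5.41, 20.4 and 5.28 CPM, Hells at 4.14, 16.0 and 3.26 CPM, and Dnmt1 at 20.3, 40.3 and 20.4 CPM. Replicate 2 lay just below the lowest 12ON liver for Hells and Dnmt1 and further below it for Uhrf1, and the other mice were nearer to group 12. Ezh2 followed less widely, at 10.4, 14.0 and 6.97 CPM. Replicate 2 was singled out by levels of these same genes, so calls made without it are no separate support. None of the 10 was called when replicate 1 or replicate 3 of 2OFF was left out instead. Without replicate 2, 5 of the 10 were lower than in 12ON, where 5.36% of all genes were lower and 2.85% higher. The log2 fold changes then were -2.84 ± 0.33 for Uhrf1 (adjusted p = 0.000321), -2.59 ± 0.24 for Hells (adjusted p = 9.63e-05), -1.18 ± 0.12 for Dnmt1 (adjusted p = 0.000154), -1.23 ± 0.18 for Ezh2 (adjusted p = 0.00153) and -0.40 ± 0.10 for Suz12 (adjusted p = 0.0262). Dnmt3b, at 12.5, 14.4 and 9.98 CPM, overlapped the 12ON livers in these 3 mice, with 0.07 ± 0.38 over all of them (adjusted p = 0.955).

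In 3OFF 6 of the 10 were lower than in 12ON and none higher, against 16.9% and 15.3% of all genes (36.5% and 5.27% with total-count scaling). The groups did not overlap for 9 of the 10, and for 51.4% of all genes. The 6 were Dnmt1, Dnmt3b, Uhrf1, Hells, Ezh2 and Suz12. Uhrf1 was at 4.12, 2.68 and 3.74 CPM, lower by 10.8-fold with a log2 fold change of -3.44 ± 0.49 (adjusted p = 0.000254). Hells was at 2.25, 2.11 and 2.14 CPM, with -3.35 ± 0.47 (adjusted p = 0.00022). Ezh2, at 7.56, 6.24 and 7.18 CPM, was lower by 1.53 on the log2 scale (SE 0.19, adjusted p = 0.000102), and Dnmt1, at 22.1, 18.6 and 16.4 CPM, by 1.26 (SE 0.20, adjusted p = 0.000411). For none of these 4 genes did a 3OFF liver reach the lowest 12ON liver. Suz12, at 36.8, 34.0 and 33.6 CPM, was lower by a log2 fold change of -0.48 ± 0.10 (adjusted p = 0.00264).

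Dnmt3b was uneven in 3OFF, at 7.85, 3.82 and 2.52 CPM, with a log2 fold change of -1.30 ± 0.40 (adjusted p = 0.0213). The call ended without 12ON replicate 3 (adjusted p = 0.0625), 3OFF replicate 2 (0.0803) or 3OFF replicate 3 (0.0853). Dnmt3a, at 36.5, 33.9 and 34.2 CPM, had -0.28 ± 0.13 (adjusted p = 0.105). Tet2 and Tet3 had 0.09 ± 0.17 and 0.26 ± 0.13, neither past the test (adjusted p = 0.725 and 0.136). Tet3 had its highest mean of all groups here, at 29.3, 25.8 and 30.4 CPM.

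In 7OFF 7 of the 10 were lower than in 12ON, the 6 above and Dnmt3a, where 22.6% of all genes were lower and 21.3% higher (46% and 7.5% with total-count scaling). No overlap was found for 7 of the 10 and 54% of all genes. Uhrf1 was at 0.804, 1.15 and 2.28 CPM, with the largest difference of any regulator, 26.4-fold lower and -4.72 ± 0.53 on the log2 scale (adjusted p = 1.39e-05). Hells was at 1.05, 1.47 and 1.36 CPM, with -4.09 ± 0.50 (adjusted p = 2.2e-05). Dnmt1 was at 14.3, 17.5 and 17.0 CPM and Ezh2 at 6.29, 5.997 and 6.83 CPM, with -1.49 ± 0.21 (adjusted p = 4.49e-05) and -1.66 ± 0.20 (adjusted p = 1.23e-05). All 7OFF livers lay below all 12ON livers in these 4 genes.

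Dnmt3a, at 26.2, 19.5 and 22.5 CPM in 7OFF, was lower than in 12ON by 0.90 (SE 0.13, adjusted p = 5.99e-05). Suz12, at 38.6, 30.3 and 33.8 CPM, was lower by 0.51 (SE 0.10, adjusted p = 0.00102). Dnmt3b, at 1.89, 6.18 and 7.30 CPM, was lowest in replicate 1, and its log2 fold change was -1.18 ± 0.40 (adjusted p = 0.0257). The Dnmt3b call ended without 7OFF replicate 1 (-0.80, adjusted p = 0.0654), without 12ON replicate 3 (-1.08, adjusted p = 0.0718), and when the 2 groups were fitted alone (adjusted p = 0.0781). Tet1 and Tet3 did not pass, with -0.79 ± 0.52 and -0.26 ± 0.13 (adjusted p = 0.235 and 0.123), but Tet1 did without 7OFF replicate 3 (-1.62, adjusted p = 0.0336) and Tet3 without 7OFF replicate 1 (-0.45, adjusted p = 0.00559). Tet2 was at 11.2, 15.7 and 18.8 CPM, a spread as wide as its range over all groups but for the lowest liver of group 12.

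**Figure D2:**
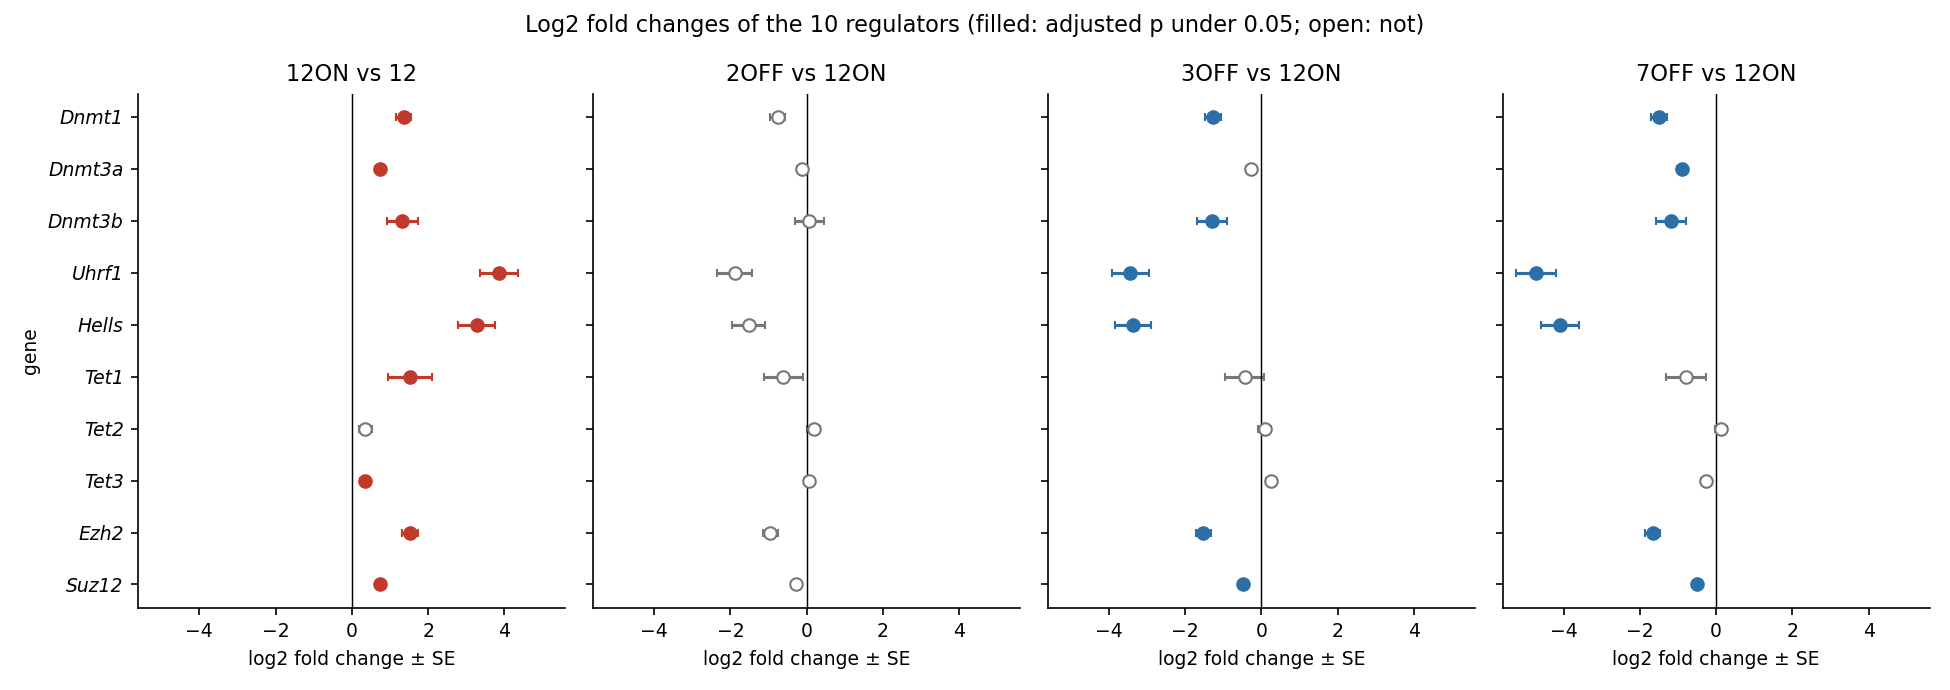
Log2 fold changes (horizontal axes) with SE bars for the 10 regulators (rows) in 4 comparisons; filled points passed at an adjusted p under 0.05 and open points did not. Uhrf1 and Hells lie farthest from 0 on the right in 12ON vs 12 (3.86 and 3.27) and on the left in 7OFF vs 12ON (-4.72 and -4.09), and Tet2 passed in none of the 4.

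The OFF groups were also set against group 12, which the design text does not ask for, and which shares its livers with the first comparison. By the labels the OFF groups differ from group 12 in days after injury, and they may also differ in earlier MycER activation, which is not stated. In 1OFF 6 of the 10 were higher (10 with total-count scaling), where 17.1% of all genes were higher and 16.3% lower (37.9% and 5.63% with total-count scaling). Without 1OFF replicate 2 the number was 3, where 12.9% of all genes were higher and 11.1% lower. The groups did not overlap for 9 of the 10 and 48.5% of all genes. The 6 called higher were Uhrf1 at 1.96 ± 0.49 (adjusted p = 0.00682), Hells at 1.59 ± 0.46, Dnmt3b at 1.15 ± 0.40, Ezh2 at 0.63 ± 0.20, Dnmt3a at 0.56 ± 0.13 and Suz12 at 0.41 ± 0.10. Dnmt1 had 0.53 ± 0.20 and just missed (adjusted p = 0.0565). Dnmt3b lost its call without any 1 of the 6 libraries (adjusted p = 0.0708 to 0.12). Hells lost it without replicate 2 of group 12 (0.0614) or of 1OFF (0.0636), and Ezh2 without group 12 replicate 1 or 3 or 1OFF replicate 1 or 2 (0.0562 to 0.0936).

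In 2OFF 9 of the 10 were higher than in group 12, all but Tet1, where 18% of all genes were higher and 16.9% lower (41% and 6.27% with total-count scaling). There was no overlap for 8 of the 10 and 45% of all genes. Without group 12 replicate 3 the number was 5, where 15% of all genes were higher and 14.3% lower. Without 2OFF replicate 2 it was 6, where 13.8% of all genes were higher and 13.1% lower. Uhrf1 had 1.97 ± 0.49 with that mouse and 1.01 ± 0.32 without it (adjusted p = 0.00627 and 0.0292), and Hells 1.75 ± 0.46 and 0.68 ± 0.23 (adjusted p = 0.00931 and 0.0439). Dnmt1 went from 0.59 to 0.17 (adjusted p = 0.0339 and 0.312), Ezh2 from 0.57 to 0.30 (0.032 and 0.232) and Dnmt3b from 1.40 to 1.26 (0.0148 and 0.0547). Dnmt1 also lost its call without any 1 library of group 12 (0.066 to 0.102) and Ezh2 without any of these or 2OFF replicate 1 (0.0577 to 0.0838). Dnmt3b lost it without group 12 replicate 3 (0.0583), Tet2 without group 12 replicate 2 (0.102) or 2OFF replicate 3 (0.0661), and Tet3 without group 12 replicate 1 or 3 or 2OFF replicate 1 (0.0779 to 0.126).

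In 3OFF 2 of the 10 were higher than in group 12 (4 with total-count scaling), where 9.33% of all genes were higher and 7.79% lower (16.7% and 3.69% with total-count scaling). The groups did not overlap for 5 of the 10 and 34.7% of all genes. The 2 called higher were Tet3 at 0.60 ± 0.13 (adjusted p = 0.00648) and Dnmt3a at 0.45 ± 0.13 (adjusted p = 0.0274). Dnmt3a lost its call without any 1 library but group 12 replicate 3 (adjusted p = 0.0514 to 0.105), and Tet2, at 0.44 ± 0.17, passed without 3OFF replicate 2 (0.56, adjusted p = 0.0495). Hells had -0.09 ± 0.47, Ezh2 -0.0030 ± 0.197 and Dnmt1 0.09 ± 0.20. In 7OFF none of the 10 passed edgeR's test against group 12, where 2.37% of all genes were higher and 3.19% lower, and DESeq2 called none either (4.03% and 5.28% of all genes). An unadjusted p under 0.05 was found for 1 of the 10 and 21.8% of all genes, and no overlap for 1 and 22.9%. The gene with an unadjusted p under 0.05 was Tet2 at 0.48 ± 0.17 (adjusted p = 0.107), which passed without 7OFF replicate 1 (0.66, adjusted p = 0.0426). Hells was the gene without overlap, with all 7OFF livers below those of group 12, and had -0.82 ± 0.50 (adjusted p = 0.364). Uhrf1 had -0.87 ± 0.52 (adjusted p = 0.362).

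Levels of S phase genes moved with Uhrf1, Hells, Dnmt1 and Ezh2. The summed CPM of 20 S phase and replication genes was 172 to 195 in group 12 and 495 to 634 in 12ON. It was 260 to 330 CPM in 1OFF mice, 193 to 213 CPM in 3OFF mice and 170 to 175 CPM in 7OFF mice. In 2OFF it was 233, 447 and 203 CPM, highest in replicate 2. Dnmt3b and Dnmt3a did not follow this sum, with means of 11.7 and 42.4 CPM in 12ON, 10.4 and 37.7 CPM in 1OFF, and 12.3 and 38.9 CPM in 2OFF. Tet3 had its highest mean, 28.5 CPM, in 3OFF. The sum of 12 G2 and mitosis genes showed the same order of groups, with 46.4 to 58.3 CPM in group 12, 311 to 532 in 12ON and 21.9 to 40.2 in 7OFF. In 12ON vs 12, 18 of the 20 S phase genes and 12 of the 12 mitosis genes were higher, against 23.8% of all genes. Their medians were 1.85 and 3.26 on the log2 scale. Mcm6, a subunit of the replicative helicase, was higher by 2.90 ± 0.36, and Cdk1, the kinase that starts mitosis, by 3.39 ± 0.44 (adjusted p = 2.24e-05 and 2.94e-05). The part of dividing cells in the regulators' results was not tested.

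As a share of the S phase sum, Ezh2 varied little between group means. It was at 3.78% ± 0.44 in group 12, 3.49% ± 0.47 in 12ON and between 3.44% and 3.70% in the OFF groups (means, SD, n = 3). The share of Dnmt1 was lower in 12ON, at 9.48%, 9.73% and 9.65% in group 12 and 8.36%, 7.71% and 7.52% in 12ON, with no overlap, and its means were between 8.54% and 9.46% in the OFF groups. The share of Uhrf1 was higher, at 1.46%, 1.197% and 1.55% in group 12 and 5.56%, 6.49% and 7.29% in 12ON. Hells was at 1.25%, 1.16% and 1.29% in group 12 and 3.29%, 3.51% and 4.50% in 12ON. For both, no 12ON liver came near group 12. The share of Uhrf1 was 3.36% ± 0.28 in 1OFF, 1.72% ± 0.32 in 3OFF and 0.816% ± 0.434 in 7OFF. Shares of Dnmt3a, Suz12, Tet2 and Tet3 were also lower in 12ON than in group 12, as for Dnmt3a at 7.33% ± 0.98 against 13.8% ± 1.67. These shares are a description and carry no test.

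**Figure D3:**
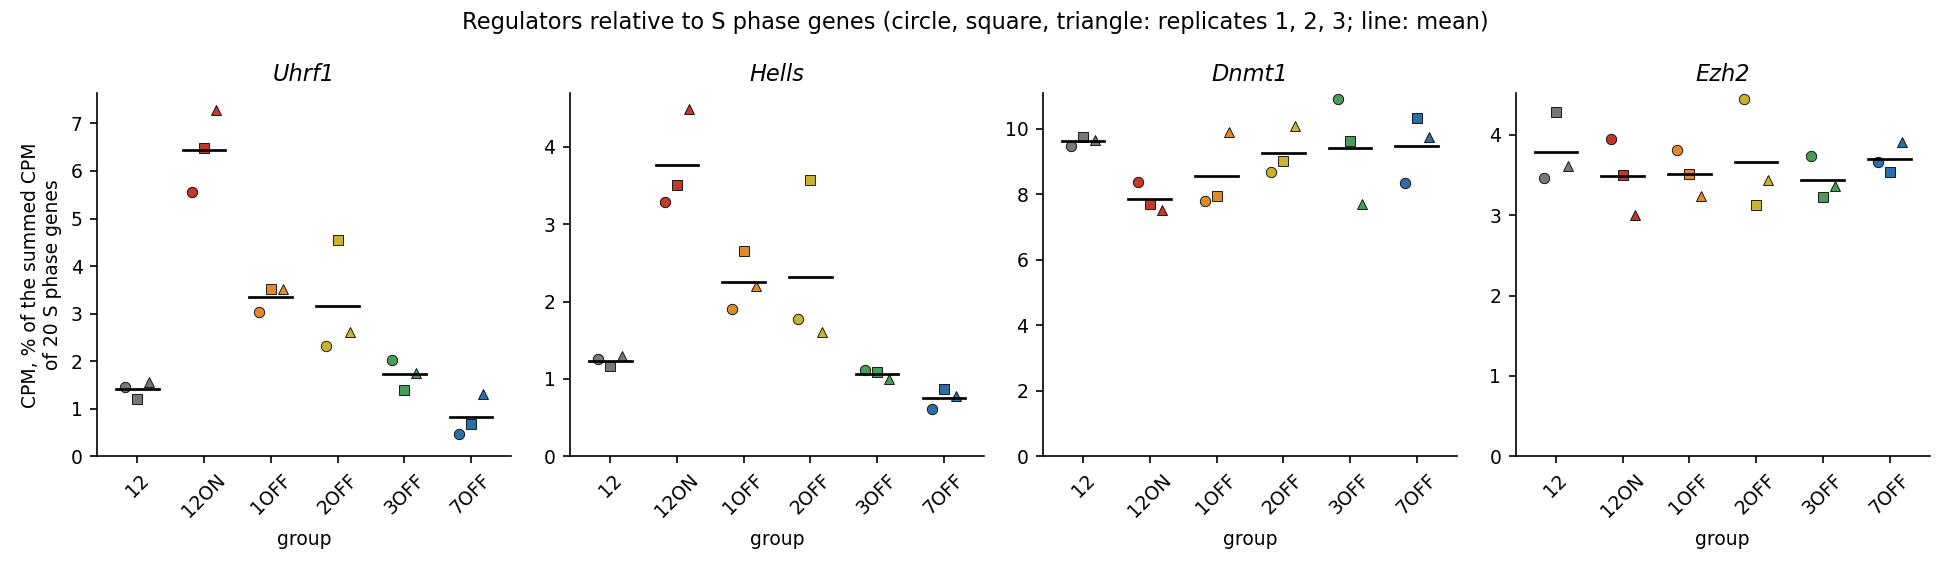
CPM of Uhrf1, Hells, Dnmt1 and Ezh2 as a percentage of the summed CPM of 20 S phase genes (vertical axes from 0) in each mouse of 6 groups, with a line at the mean. Uhrf1 goes from 1.197% to 1.55% in group 12 to 5.56% to 7.29% in 12ON, while Ezh2 has group means of 3.44% to 3.78%.

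Markers of several other liver cell types also moved with the groups. All 6 cholangiocyte markers were higher in 12ON than in group 12 and lower in 3OFF and 7OFF than in 12ON, with summed levels of 32.1 to 93.4 CPM in group 12 and 184 to 198 CPM in 12ON. The sum was 114 to 137 CPM in 1OFF mice, 62.1 to 117 CPM in 2OFF mice, 69.5 to 82.6 CPM in 3OFF mice and 49.6 to 78.1 CPM in 7OFF mice. All 6 hepatocyte markers were lower in 12ON, from 102030 to 111930 CPM summed in group 12 to 27584 to 34671 CPM. B cell markers were at 4.31 to 5.82 CPM summed over 4 genes in group 12 and 0.981 to 1.201 CPM in 12ON. Stellate cell and myofibroblast markers had a summed mean of 136 CPM over 6 genes in group 12 and 245 CPM in 12ON, with 3 of 6 higher. That sum was 242 CPM in 1OFF mice and 245 CPM in 2OFF mice, then 171 CPM in 3OFF mice and 156 CPM in 7OFF mice. All 5 markers of sinusoidal endothelium were lower in 12ON than in group 12, as were 3 of 5 of Kupffer cells, 3 of 6 of monocytes and macrophages and 1 of 6 of T and NK cells. Of all genes 23.8% were higher and 22.5% lower there, and the T and NK count was near that share. In 3OFF and 7OFF 16.9% and 22.6% of all genes were lower than in 12ON. None of 3 neutrophil and none of 4 erythroid markers was called in 12ON vs 12. None of these markers was at 0 in every library. Their part in the results was not tested.

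Other genes of the same pathways were taken from lists chosen with earlier results of these data known, and are described by counts. In 12ON vs 12, 5 of 8 tested partners of maintenance and de novo methylation were higher and none lower, with a median of 1.23. Of all genes 23.8% were higher and 22.5% lower. Cdca7l, a relative of the HELLS partner CDCA7, was higher by 3.49 ± 0.22 (adjusted p = 5.21e-08), from 1.68 to 18.9 CPM. Prmt5, an arginine methyltransferase of histones, was higher by 1.63 ± 0.10, and Trim28, a corepressor that keeps imprints methylated, by 1.08 ± 0.09 (adjusted p = 5.21e-08 and 7.52e-07). In 3OFF and 7OFF 5 of the 8 were lower than in 12ON, against 16.9% and 22.6% of all genes, with medians of -0.80 and -1.01. In 7OFF 2 of the 8 were higher, near the 21.3% of all genes, and in 3OFF none, against 15.3%. Cdca7l was at 4.68 CPM in 3OFF and 1.79 CPM in 7OFF.

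Of 8 readers of methylated CpG, 2 were higher and 2 lower in 12ON, near the 23.8% and 22.5% of all genes, with a median of -0.0087. Mbd4, a glycosylase that repairs mismatches at CpG, was higher by 0.74 ± 0.18 (adjusted p = 0.00308) and Mbd3, a subunit of the NuRD complex, by 0.44 ± 0.16 (adjusted p = 0.0286). The zinc finger proteins Zbtb38 and Zbtb4 were lower, at -0.37 ± 0.10 and -0.50 ± 0.12 (adjusted p = 0.00502 and 0.0029). Of 8 genes of demethylation and base excision, 6 were higher and 2 lower, with a median of 0.54. The share lower was near the 22.5% of all genes, and 23.8% of all genes were higher. Idh2, the mitochondrial isocitrate dehydrogenase that makes the TET cofactor 2-oxoglutarate, was higher by 1.63 ± 0.11, from 84.1 to 261 CPM (adjusted p = 6.21e-08). Its cytosolic relative Idh1 was lower by -1.02 ± 0.15, from 485 to 239 CPM (adjusted p = 6.26e-05). Apex1, the endonuclease of base excision, was higher by 0.84 ± 0.13 and the glycosylase Smug1 by 0.54 ± 0.11, and Gadd45a was lower at -0.93 ± 0.19 (adjusted p = 9.66e-05, 0.000645 and 0.00085). Its relative Gadd45b went the other way, higher by 1.56 ± 0.37 (adjusted p = 0.00327).

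Of 10 other PRC2 subunits 5 were higher and 1 lower in 12ON, against 23.8% and 22.5% of all genes, with a median of 0.38. Rbbp7, a histone chaperone of the core complex, was higher by 0.85 ± 0.10 and the accessory subunits Aebp2 and Epop by 0.80 ± 0.10 and 1.83 ± 0.29 (adjusted p = 6.95e-06, 1.27e-05 and 0.000123). Phf1, a Polycomb-like accessory subunit, was lower at -0.72 ± 0.13 (adjusted p = 0.000398), and was higher in 7OFF than in 12ON by 1.12 ± 0.13 (adjusted p = 1.28e-05). Of 21 PRC1 subunits 5 were higher, none lower, and the median was 0.036. Pcgf6, of a variant PRC1, was higher by 1.05 ± 0.17 (adjusted p = 0.000107), and Rybp and L3mbtl2 by 0.45 ± 0.15 and 0.43 ± 0.12 (adjusted p = 0.0192 and 0.00664). Among 6 genes that oppose Polycomb marks 3 were higher, the deubiquitylase subunits Asxl1 and Bap1 by 0.62 ± 0.10 and 0.31 ± 0.07 (adjusted p = 0.000113 and 0.00295) and the demethylase Kdm6b by 0.37 ± 0.11 (adjusted p = 0.00849). None of these 6 was lower. In PRC1 and in the methyl-CpG readers the share of higher members was near the 23.8% of all genes.

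**Figure D4:**
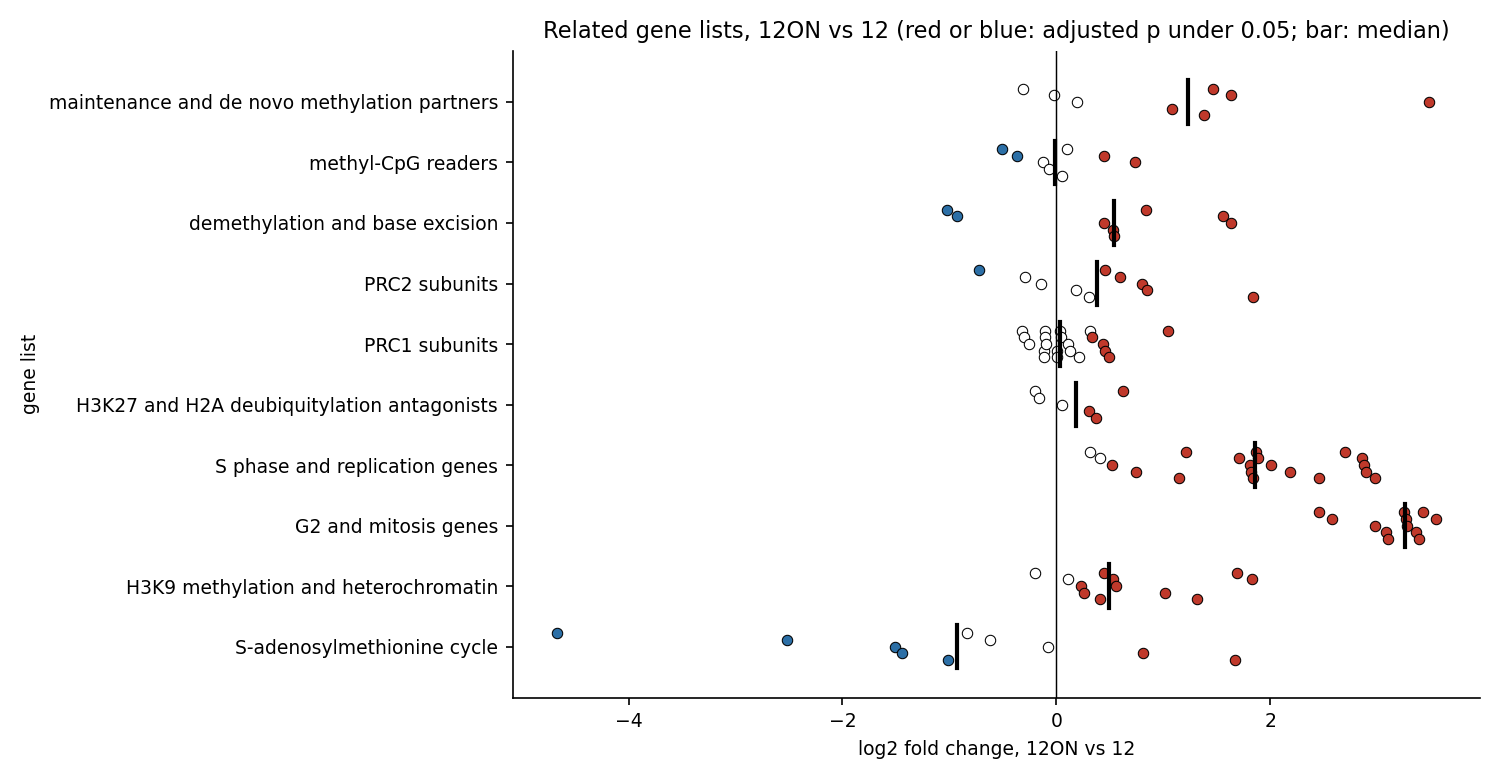
Log2 fold change in 12ON vs 12 (horizontal axis) of each tested gene of 10 related lists (rows); filled points passed at an adjusted p under 0.05, red higher and blue lower, and bars mark list medians. S phase and mitosis genes have medians of 1.85 and 3.26, PRC1 subunits and methyl-CpG readers medians near 0.

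The regulators differed among themselves in pattern. Likeness was measured as the mean absolute difference, in log2 units, between profiles of the 6 group means after each was centred on its own mean, and it is a description with no test. The closest pair was Dnmt1 and Ezh2, at 0.0611, and the next Tet2 and Tet3, at 0.142. The measure is not scaled to the range of a profile, so genes that vary little come out close. Profiles of Tet2 and Tet3 spanned only 0.548 and 0.592, and those of Dnmt1 and Ezh2 1.49 and 1.64. Uhrf1 and Hells were 0.233 apart while spanning 4.72 and 3.96. Among 17682 other tested genes, the profile nearest to Uhrf1 was that of Fignl1 (0.107), followed by Esco2 (0.136), and those nearest to Hells were Chtf18 (0.117) and Cdca2 (0.118). For Dnmt1 they were 4930579G24Rik (0.0441) and Tubb5 (0.055), for Ezh2 the pseudogene Pcna-ps2 (0.0421), whose reads may come from Pcna, and H2afx (0.0458). Dnmt3a was nearest to Zyg11a (0.0304) and Plec (0.0326), Dnmt3b to Neu3 (0.0809) and Tdrd12 (0.0848), and Suz12 to Mfsd10 (0.0266) and 2500002B13Rik (0.0267). Tet1 was nearest to Cep112 (0.0624) and 2810408A11Rik (0.0697), Tet2 to Ppp1r13b (0.0226) and Polg2 (0.0234), and Tet3 to Ephb4 (0.0437) and Mcl1 (0.0467).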

How the data were processed

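Poly-A RNA of 18 mouse livers, 1 library per mouse and 3 mice in each of 6 groups, was sequenced as single reads of 50 nt, per the labels' protocols. The submitters' processing notes name Trim Galore, TopHat2 and the build mm10, and give no versions. The deposited values are raw counts per gene that the authors made with featureCounts 1.5.0-p1 on Ensembl 82 exons, without strand and with a minimum overlap of 10 bases, per the file headers.

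Symbols were matched for 34599 of 34937 genes. Replicates differed by far more than sampling noise (chi-square per gene 33.9 to 310). One edgeR 4.0.16 fit in R 4.3.3 (TMM, filterByExpr at a minimum count of 10, robust glmQLFit, 12 residual degrees of freedom) covered all 18 libraries and 17789 genes, with two-sided F tests and Benjamini-Hochberg adjustment at 0.05. Each SE was derived as the size of the log2 fold change over the square root of F. When tested on simulated data for 12ON vs 12 (17575 genes), the fit found 8% of 50 genes altered 1.5-fold, 72% at 2-fold, 96% at 4-fold and 98% at 8-fold, and made 7 false calls. Only 50 genes per fold size were altered there, while 46.3% of all genes were called in the real 12ON vs 12. The adjusted cutoff was therefore stricter in the simulated data than in that comparison.

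The 10 regulators and all lists were chosen with earlier results of these data known. The rule for named genes took all 10 regulators, up to 3 members per list and direction with the smallest p in 12ON vs 12, and the 2 nearest profiles per regulator, with 0.125 added before log2. Gadd45b was named outside this rule, beside its relative Gadd45a. Promoters came from the RefSeq table of GRCm38.p6, and no protein sequence was used here. Alternatives were other scalings and filters, DESeq2 1.42.0, 2 groups alone, a replicate block, a term for high Xist (above 50 CPM), an adjusted p of 0.01 and each library left out. Same-numbered libraries did not deviate together in every pair (correlations -0.18 to 0.291), so numbers were not used to pair mice.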

Additional observations from a re-analysis of the deposited data

How the results depend on the processing

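Over 90 fold changes of single regulators, 1287 of 1431 alternative values kept their direction and side of the threshold, 75 lost the call, 45 gained it, and 24 changed sign where neither value was called. The counts for 12ON vs 12 (6 to 10 called), 3OFF vs 12ON (5 to 8) and 7OFF vs 12ON (6 to 8) stayed within 1.5 times of the main count under all alternatives run. In 1OFF vs 12ON the count of 0 became 1 with a replicate block, 5 with 2 groups alone and 4 with DESeq2. In 2OFF vs 12ON it became 1 with upper-quartile scaling, total-count scaling or a minimum count of 50, 2 with the block and 4 with DESeq2, and lay between 0 and 5 (without 2OFF replicate 2) as each library was left out. In 1OFF vs 12 the count of 6 became 10 with total-count scaling, 3 at an adjusted p of 0.01, and 3 (without 1OFF replicate 2) to 5 with a library left out. In 2OFF vs 12 the count of 9 became 4 at 0.01 and 5 (without group 12 replicate 3) to 8 with a library left out. In 3OFF vs 12 the count of 2 became 4 with total-count scaling, 1 at 0.01 and 1 to 2 with a library left out, and in 7OFF vs 12 it lay between 0 and 1. The cause was not tested. The block moved no other count by over 1.5 times, and Tet2 passed with it in 12ON vs 12 (adjusted p = 0.0452), 1OFF vs 12 (0.0316) and 3OFF vs 12 (0.039). Dnmt3b in 1OFF vs 12 lost its call with the block (0.0592), with the Xist term (0.0582) and with no filter (0.0684). With the Xist term Tet3 in 12ON vs 12 also lost its call (0.0556), and Tet2 in 1OFF vs 12 gained one (0.0394). With 3 mice per group, changes of 1.5-fold were seldom recovered in simulated data in which few genes were altered. In 12ON vs 12 46.3% of all genes were called, so that recovery does not describe this comparison. Tet1 rests on 3 to 55 counts per library and was not tested at a minimum count of 50.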

Other observations

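Genes of H3K9 methylation and heterochromatin, a silencing system beside DNA methylation and Polycomb, were mostly higher in 12ON, with 10 of 12 higher and none lower than in group 12, against 23.8% and 22.5% of all genes (median 0.49 on the log2 scale, -0.0047 over all genes). Lmnb1, a lamin of the nuclear envelope, was higher by 1.83 ± 0.25, from 7.36 to 26.1 CPM (edgeR's quasi-likelihood test, adjusted p = 3.95e-05, n = 3 per group). Suv39h1, an H3K9 methyltransferase, was higher by 1.69 ± 0.18 and Cbx5, which encodes the reader HP1 alpha, by 1.02 ± 0.12 (adjusted p = 3.82e-06 and 8.71e-06). In 3OFF and 7OFF 8 and 7 of the 12 were lower than in 12ON, against 16.9% and 22.6% of all genes, and none higher.

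The S-adenosylmethionine cycle supplies methyl groups to these enzymes. Of 10 genes, 2 were higher and 5 lower in 12ON than in group 12, with a median of -0.92. The share higher was near the 23.8% of all genes, and 22.5% of all genes were lower. Mat2a, which makes S-adenosylmethionine outside differentiated hepatocytes, was higher by 1.67 ± 0.13, from 49.5 to 157 CPM (adjusted p = 3.07e-07), and Mtr, methionine synthase, by 0.81 ± 0.14 (adjusted p = 0.000301). Cbs, which draws homocysteine out of the cycle, was lower at -2.52 ± 0.21, from 1011 to 176 CPM (adjusted p = 5.73e-07). Ahcy, which breaks down the product of methyl transfer, was lower at -1.45 ± 0.31, and Nnmt, which uses methyl groups on nicotinamide, at -4.67 ± 1.21 (adjusted p = 0.00127 and 0.00571). In 7OFF vs 12ON the counts were 5 higher and 2 lower, against 21.3% and 22.6% of all genes, with Mat2a at -1.33 ± 0.13 and Cbs at 1.96 ± 0.21 (adjusted p = 2.9e-06 and 6.15e-06). Hepatocyte markers were lower in 12ON, and their part in these values was not tested.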
